A study of Oryza sativa Japonica Group with 8 samples.

Results

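The cyclin genes described here are the 5 loci, of 1174 genes listed as changed between dcl3b knockdown and wild type rice, whose description in the deposited tables holds the word cyclin and none of F-box, kinase or transposon. All 5 were listed as lower in the knockdown and 0 as higher. Messenger RNA came from young panicles of field-grown japonica rice, taken before heading, in 3 wild type and 3 dcl3b knockdown mutant libraries, and small RNA from 1 library of each genotype. The knockdown lowers OsDCL3b, an enzyme of the Dicer family, which dices double-stranded RNA to yield siRNAs (small interfering RNAs). The labels give no further allele, construct or number of lines, and do not say whether replicates came from separate plants, so the spread between them may be technical. Panicles are bulk tissue, in which fewer cells of a type and less RNA per cell cannot be told apart.

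Cyclins are the regulatory partners of cyclin-dependent kinases. A cyclin binds the kinase, activates it and helps to choose its substrates, and in eukaryotes the successive rise and destruction of different cyclins orders the steps of the cell cycle. Plants carry large cyclin families, with D-type cyclins mainly linked to entry into division, A-type cyclins to DNA synthesis and later, and B-type cyclins to mitosis, while other classes act outside the cycle, for example in transcription. Of the 5 genes, LOC_Os02g39230 is the one whose description gives a class, cyclin-F1-4. The other 4, LOC_Os02g39240, LOC_Os02g39260, LOC_Os02g39430 and LOC_Os03g11040, are described only as putative cyclins, so which class they belong to, and which step of the cycle they act in, is not given by the files.

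Levels are FPKM, the authors' read density per length and depth, rounded by the authors to steps of 0.01. The targeted gene LOC_Os10g34430, described as Dicer, stood at 0.943 ± 0.0551 FPKM in wild type and 0.443 ± 0.0551 FPKM in the knockdown (SD, n = 3 each), in the direction of the labels. Because the 5 cyclin genes were taken from lists that the authors called on these same values (adjusted p of at most 0.05 and a log2 fold change of at least 1 in size), their differences between genotypes are given as descriptions, without a test. Of all listed genes, 530 (45.1%) were called lower.

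LOC_Os02g39230, the cyclin-F1-4 gene, stood at 0.17, 0.28 and 0.39 FPKM in wild type against 0.07, 0.05 and 0.10 FPKM in the knockdown. The groups did not overlap, and the lowest value was that of knockdown replicate 2. The means were 0.280 ± 0.110 against 0.0733 ± 0.0252 FPKM (SD, n = 3 each), so that the knockdown held 26.2% of the wild type level. In the authors' deposited table the log2 fold change was -2.02 and the adjusted p 0.0258.

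LOC_Os02g39240, the next locus number, stood at 0.68, 0.65 and 0.46 FPKM in wild type against 0.09, 0.40 and 0.04 FPKM in the knockdown. Knockdown replicate 2 was far above the other knockdown libraries and just below the lowest wild type value, so the groups were apart by a narrow margin. The means were 0.597 ± 0.119 and 0.177 ± 0.195 FPKM (SD, n = 3 each), a knockdown level of 29.6% of wild type. Without knockdown replicate 2 the knockdown level was 10.9% of wild type. In the authors' deposited table its log2 fold change was -1.66 and its adjusted p 0.0455, the nearest to the limit of the 5 genes.

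LOC_Os02g39260 stood at 0.41, 0.42 and 0.16 FPKM in wild type against 0.02, 0.10 and 0.07 FPKM in the knockdown. Wild type replicate 3 was well below the other wild type libraries, yet above every knockdown library. Its means were 0.330 ± 0.147 and 0.0633 ± 0.0404 FPKM (SD, n = 3 each). The knockdown level was 19.2% of wild type, the smallest share of the 5 genes. The authors' deposited table gave a log2 fold change of -2.30 and an adjusted p of 0.01001.

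LOC_Os02g39430 stood at 0.82, 0.36 and 0.55 FPKM in wild type against 0.13, 0.07 and 0.22 FPKM in the knockdown. Wild type replicate 1 held the highest cyclin value of any library, and replicate 2 was the lowest wild type library for this gene, again without overlap between the groups. The means were 0.577 ± 0.231 and 0.140 ± 0.0755 FPKM (SD, n = 3 each), or 24.3% of wild type in the knockdown. With a log2 fold change of -2.07 and an adjusted p of 0.00745 in the authors' deposited table, it had the smallest adjusted p of the 5.

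LOC_Os03g11040, the cyclin gene on chromosome 3, stood at 0.23, 0.19 and 0.35 FPKM in wild type against 0.09, 0.06 and 0.11 FPKM in the knockdown. Wild type replicate 3 was the highest library and knockdown replicate 2 the lowest, and the groups did not overlap. The means were 0.257 ± 0.0833 and 0.0867 ± 0.0252 FPKM (SD, n = 3 each). At 33.8% of wild type in the knockdown it had the smallest relative difference of the 5, with a log2 fold change of -1.55 and an adjusted p of 0.0452 in the authors' deposited table.

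**Figure D1:**
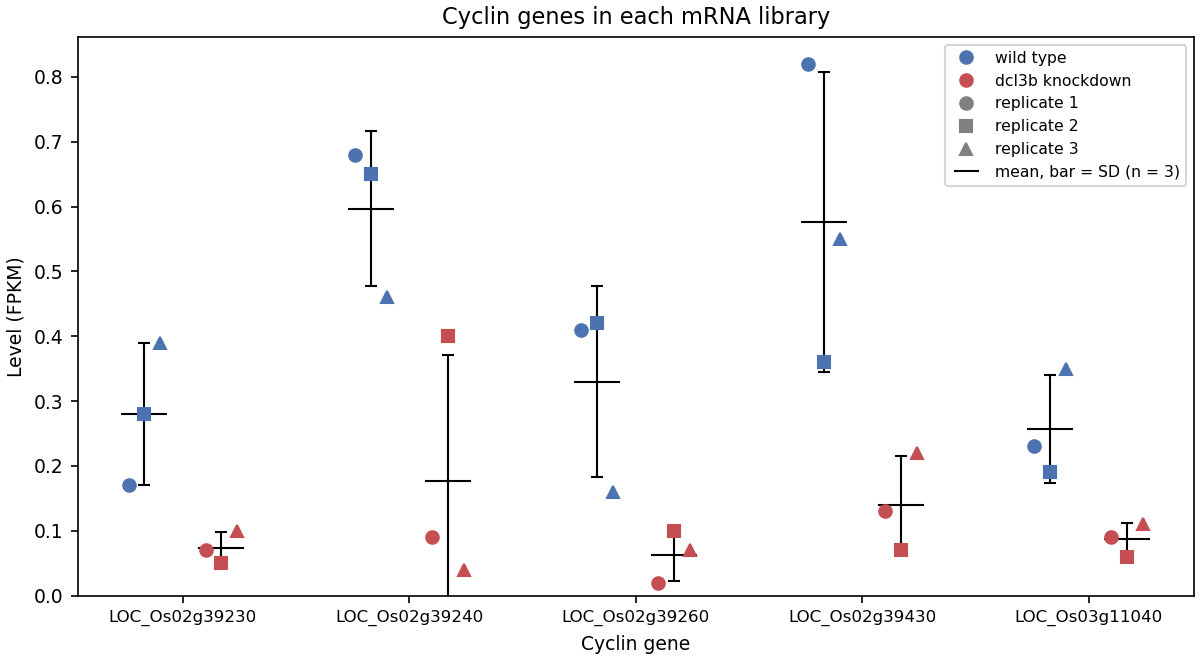
Level in FPKM (vertical axis, linear) of the 5 cyclin genes in each of the 6 mRNA libraries; colour gives the genotype, marker shape the replicate, the horizontal line the mean and the bar the SD (n = 3), with the lower bar of LOC_Os02g39240 in the knockdown ending at the axis. Every knockdown point lies below every wild type point of its gene, with the narrowest gap in LOC_Os02g39240, at 0.40 against 0.46 FPKM.

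Summed over the 5 genes, the cyclin level was 2.31, 1.90 and 1.91 FPKM in wild type against 0.40, 0.68 and 0.54 FPKM in the knockdown. The sum was thus 26.5% of wild type in the knockdown (2.04 ± 0.234 against 0.540 ± 0.140 FPKM, SD, n = 3 each), with a smaller relative spread in wild type than any single gene had. The coefficient of variation (SD over mean) of single genes ran from 20% to 44.6% in wild type and from 29.0% to 110.4% in the knockdown. The highest was that of LOC_Os02g39240 in the knockdown, set by replicate 2.

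In order of wild type level the genes were LOC_Os02g39240, LOC_Os02g39430, LOC_Os02g39260, LOC_Os02g39230 and LOC_Os03g11040. The libraries of each gene overlapped those of the next in this order. In the knockdown LOC_Os02g39240 and LOC_Os02g39430 again had the highest means, while LOC_Os02g39260, the third in wild type, had the lowest. There too the libraries of each gene overlapped those of the next.

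In all 5 genes the highest knockdown value was under the lowest wild type value, which was so for 472 of the 530 genes that fell (89.1%). The count for the cyclins is near that background, and genes of both kinds were chosen on the same values. A log2 fold change of -2 or lower in the authors' deposited table was found for 3 of the 5, against 90 of the 530 (17%), and 1 had an adjusted p of at most 0.01, against 328 (61.9%). The median log2 fold change of the cyclins was -2.02, and that of all genes that fell was -1.44. The 530 genes were not matched to the cyclins in level. In the authors' deposited table LOC_Os03g11040 (-1.55) and LOC_Os02g39240 (-1.66) already lay near the limit, with adjusted p of 0.0452 and 0.0455. Whether the cyclins fell more than other genes of like level was not tested.

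The cyclin genes were among the weakly expressed of the genes that fell. Their mean wild type levels ran from 0.257 to 0.597 FPKM, while the median of the 530 genes was 1.83 FPKM. A mean below 1 FPKM in wild type was found for all 5 cyclins and for 201 of the 530 genes (37.9%). A single step of 0.01 FPKM is a sizeable part of the smallest values, such as 0.02 FPKM for LOC_Os02g39260 in knockdown replicate 1. No cyclin gene was listed at 0 in any library. By adjusted p, LOC_Os02g39240 stood 511th and LOC_Os03g11040 510th of the 530 genes, and 19 genes that fell lay nearer to the limit than either. Genes beyond the limit were not analysed here.

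**Figure D2:**
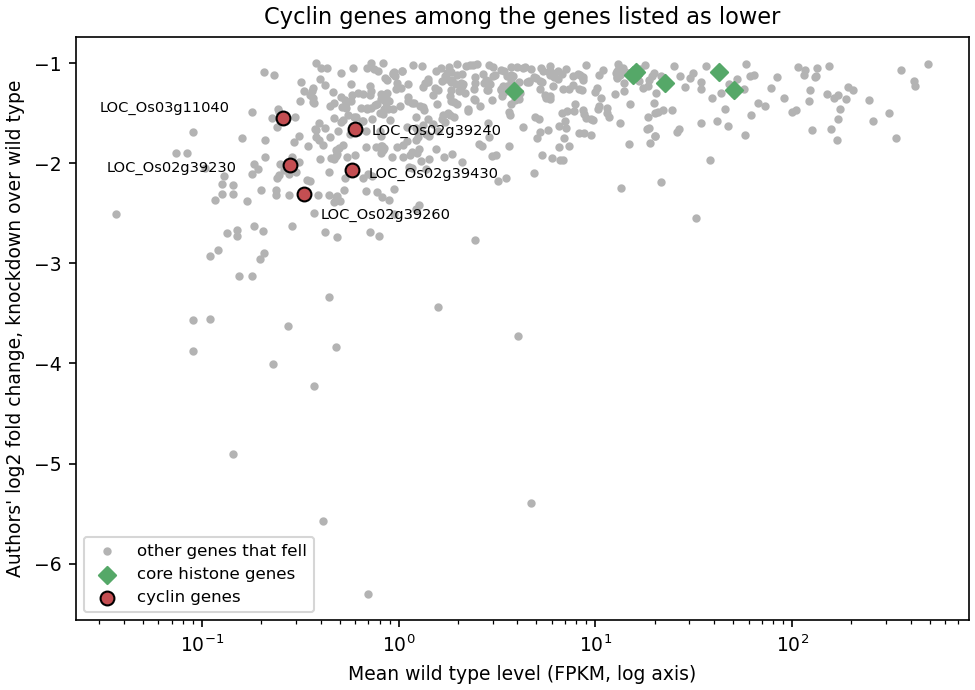
Mean wild type level in FPKM (horizontal, log axis) against the authors' log2 fold change (vertical; knockdown relative to wild type) for the 530 genes that fell; each point is a gene, with the 5 cyclin genes in red and the 6 core histone genes as green diamonds. The cyclins lie at the low end of the level axis, between 0.257 and 0.597 FPKM, with log2 fold changes from -2.30 to -1.55, and the histones at 3.84 to 50.8 FPKM, with -1.28 to -1.09.

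Of the 5 genes, 4 lie on chromosome 2 with locus numbers that span 200, and in the small RNA windows that name a gene the locus number rose with position in 81 of 81 neighbouring pairs. LOC_Os02g39230 and LOC_Os02g39240 are 10 apart. No other listed gene has a number inside that span, among 109 listed genes of chromosome 2, of which 56 were lower. The nearest listed genes on either side, 290 numbers before and 2250 numbers after the span, were both higher in the knockdown. LOC_Os02g38940, described as a cytochrome P450, was at 0.09, 0.23 and 0.05 FPKM in wild type against 0.37, 0.21 and 0.94 FPKM in the knockdown. LOC_Os02g41680, described as phenylalanine ammonia-lyase, the entry enzyme of phenylpropanoid synthesis, was at 12.2, 11.6 and 8.13 FPKM in wild type against 28.7, 15.4 and 33.3 FPKM in the knockdown.

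Over the whole of both lists there were 4 runs of at least 3 described genes that shared a description and a direction within 200 locus numbers, with all cyclin descriptions counted as one. That width is the span of the cyclins themselves, and no other descriptions were merged, so the sizes of the runs are not ranked. The cyclin run held 4 genes, of which 3 share the exact description. The other runs held 3 genes each, namely SMP-30/gluconolactonase-like genes that fell on chromosome 6, and dirigent genes and tasselseed-2-like genes that rose on chromosome 7. Summed over the 4 chromosome 2 genes, the level was 1.78 ± 0.268 FPKM in wild type and 0.453 ± 0.156 FPKM in the knockdown (SD, n = 3 each). Neighbouring genes of a family can resemble each other in sequence, and the sources used here do not say how reads with several matches were assigned, so the split of the level among these 4 genes is uncertain.

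Within a genotype the cyclin genes did not rank the libraries alike. In wild type the highest library was replicate 1 for LOC_Os02g39240 and LOC_Os02g39430, replicate 2 for LOC_Os02g39260 and replicate 3 for LOC_Os02g39230 and LOC_Os03g11040. In the knockdown, replicate 2 was the highest for LOC_Os02g39240 and LOC_Os02g39260 and the lowest for the other 3. Replicate 2 stood apart among the genes that fell, the only ones for which this order was counted. It was the highest knockdown library in 360 of the 530 genes that fell (67.9%), against 2 of the 5 cyclins, and the lowest wild type library in 295 (55.7%), also against 2 of the 5. Both orders together held for 211 genes (39.8%) and for 0 of the 5 cyclins.

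After the genotype mean was taken off log2(FPKM + 0.5), the correlation between cyclin genes over the 6 libraries ran from -0.91 to 0.71 across 10 pairs, of which 3 were positive. The highest was between LOC_Os02g39230 and LOC_Os03g11040 and the lowest between LOC_Os02g39260 and LOC_Os03g11040. The same measure over the 6 listed core histone genes, whose proteins package newly made DNA, gave 0.91 to 0.997 across 15 pairs, all positive. The histones ranged much higher in level, from 3.84 to 50.8 FPKM in wild type. Values of all these genes share the same libraries and their scaling, and the low cyclin levels carry more counting and rounding error, so these correlations are given as a description only.

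**Figure D3:**
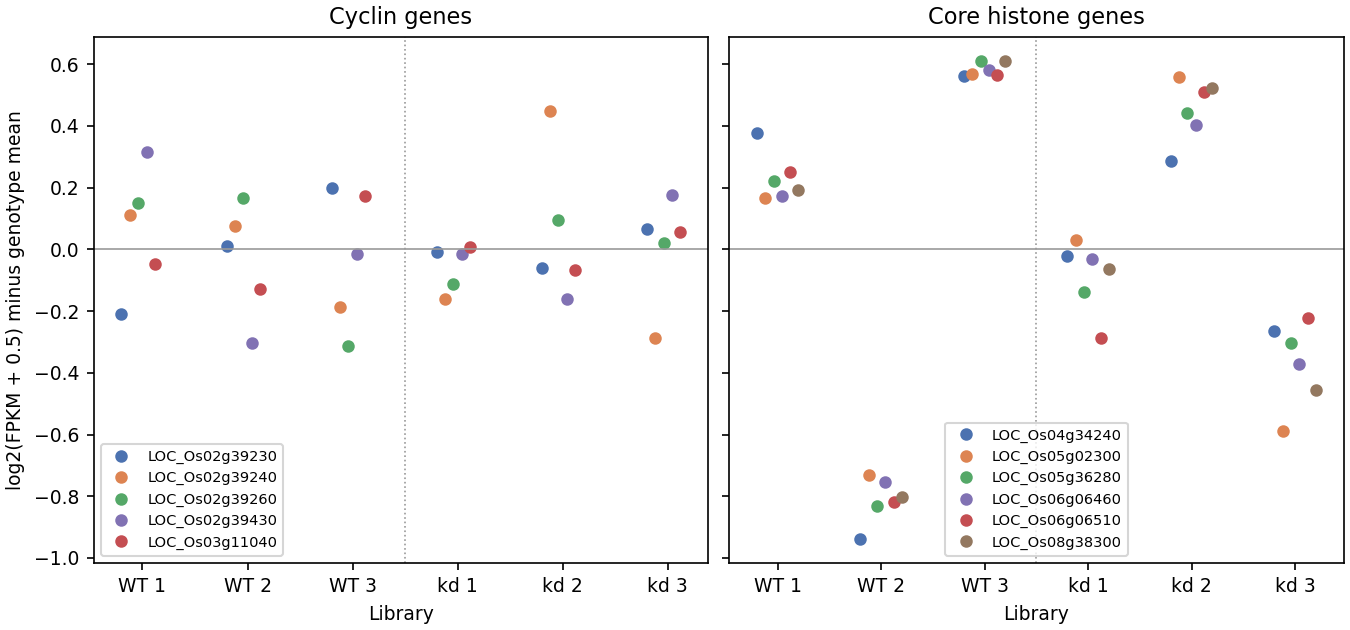
Deviation of log2(FPKM + 0.5) from the mean of its own genotype (vertical) in each mRNA library (horizontal; WT, wild type; kd, knockdown), for the 5 cyclin genes (left) and the 6 core histone genes (right); each point is 1 gene in 1 library. The histone points lie low together in wild type replicate 2 and high together in knockdown replicate 2, while the cyclin points lie on both sides of 0 in each library. The added 0.5 is large beside the cyclin levels and small beside the histone levels. It shrinks the cyclin deviations, so their size cannot be compared between the panels.

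The 5 listed, described genes above a mean of 1 FPKM whose within-genotype deviations were most like the mean of the cyclin genes had correlations of 0.94 to 0.99 over the 6 libraries, out of 410 genes compared. They were LOC_Os02g16610 (harpin-induced protein 1 domain), LOC_Os02g07110 (OsSAUR6), LOC_Os06g07887 (exostosin family), LOC_Os09g26590 (OsSAUR37) and LOC_Os03g51760 (OsFBX109, an F-box protein). All 5 were listed as lower, as were 45.1% of all listed genes. These are the highest of 410 correlations over only 6 libraries, so their size follows from the choice and is given as a description only. The mean of the cyclin genes is not a profile the cyclins share: LOC_Os02g39230 and LOC_Os03g11040 correlated with it at -0.65 and -0.26, although they are part of it.

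Other genes linked to the cell cycle were taken from 8 lists of description keywords, and MYB transcription factors, most of which have other roles, from a further list. The 8 lists held 13 listed genes beside the cyclins, and 13 were lower and 0 higher in the knockdown, where 45.1% of all listed genes were lower. The 13 are not independent, since 6 are the core histone genes, which varied together within genotypes and overlapped between them. The lists were chosen with earlier results known, so the count is a description only. No listed gene matched the DNA replication list (DNA polymerases, minichromosome maintenance and origin proteins and the like) or the list of cyclin-dependent kinase inhibitors. Genes measured but not called changed were not analysed here, so these counts do not say how much of each list was measured.

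Among the kinases that cyclins activate, 2 genes were listed. LOC_Os06g47880, described as a homolog of cell division control protein 2, the founding cyclin-dependent kinase, was at 0.26, 0.34 and 0.67 FPKM in wild type against 0.10, 0.07 and 0 FPKM in the knockdown. The authors' deposited table put its log2 fold change at -2.68 and its adjusted p at 0.00442. LOC_Os10g06800, described as cyclin-dependent kinase G-2 and left out of the cyclin genes by the word kinase, was at 0.77, 1.33 and 0.99 FPKM in wild type against 0.43, 0.45 and 0.43 FPKM in the knockdown, with a log2 fold change of -1.25 and an adjusted p of 0.0366 in the authors' deposited table. Neither gene overlapped between genotypes, which was so for 89.1% of all genes that fell.

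The kinesins, motors that move along microtubules in the spindle and elsewhere, were represented by LOC_Os12g39980, at 1.11 ± 0.278 against 0.483 ± 0.135 FPKM (SD, n = 3 each), and LOC_Os09g25380, at 0.380 ± 0.101 against 0.187 ± 0.0643 FPKM. A pair of genes described as DNA topoisomerase IV subunit A fell, LOC_Os03g57000 from 1.34 ± 0.236 to 0.483 ± 0.203 FPKM and LOC_Os03g56490 from 1.76 ± 0.346 to 0.827 ± 0.319 FPKM. LOC_Os04g37960, described as synaptonemal complex protein 2 and the one listed gene of the meiosis list, was at 0.37, 0.24 and 0.34 FPKM in wild type against 0.12, 0.19 and 0.10 FPKM in the knockdown. All 5 listed MYB genes were lower, where 45.1% of all listed genes were lower. Of the MYB genes, LOC_Os04g39470 is also among the anther and tapetum genes below. Of these 5, 3 were free of overlap between genotypes, against 89.1% of all genes that fell. LOC_Os03g18480 had the largest log2 fold change of the MYB genes, -1.70 in the authors' deposited table.

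All 6 core histone genes overlapped between genotypes. Groups without overlap, as in the 5 cyclins, were found for 89.1% of all genes that fell. In each, knockdown replicate 2 was above wild type replicate 2, by 1.09 to 1.28 times. Their summed level was 162, 79.2 and 213 FPKM in wild type against 60.6, 91.5 and 48.8 FPKM in the knockdown. Whether cyclins and histones differ in how they responded was not tested.

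**Figure D4:**
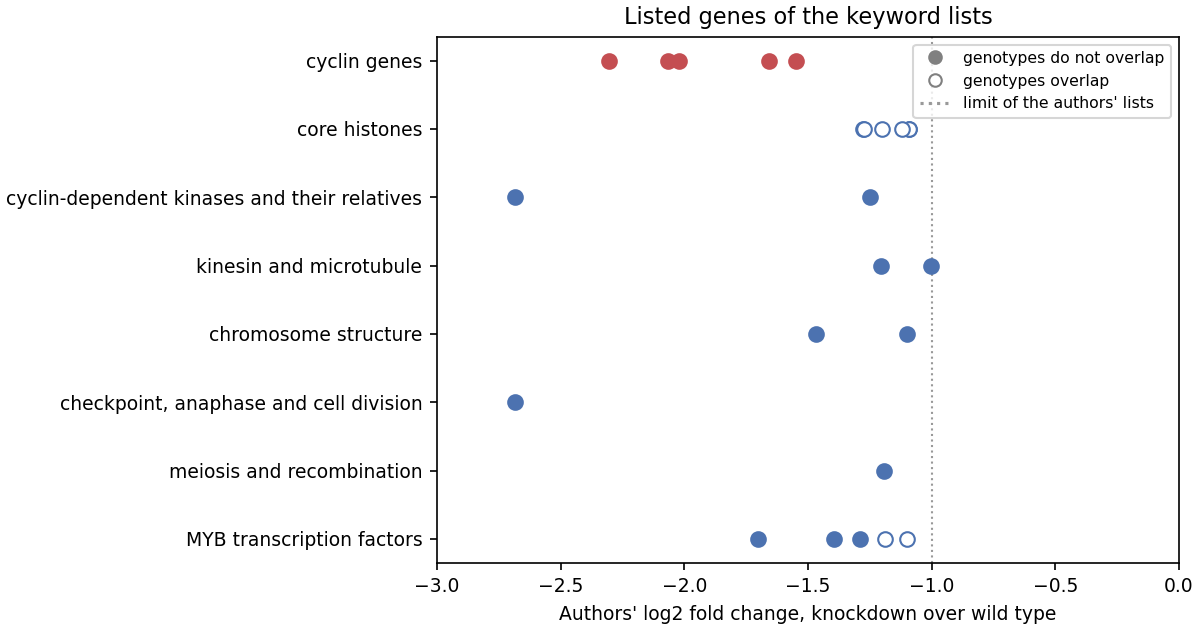
The authors' log2 fold change (horizontal; knockdown relative to wild type) for each listed gene of the cyclin genes (red) and of the 7 keyword lists with a listed gene (blue); filled points are genes whose genotypes do not overlap, and the dotted line marks the limit of the authors' lists. LOC_Os06g47880 appears in both lists that hold it. The points run from -2.68 to -1.001, and the 6 histone points are open.

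Genes known from anthers, pollen or green tissue were also among those listed, in both directions. The summed level of 10 anther and tapetum genes (the tapetum nourishes developing pollen) was 1806, 2048 and 1852 FPKM in wild type against 538, 1174 and 765 FPKM in the knockdown, and 10 of 10 were lower. These 10 were taken from an earlier analysis of the same tables because they fell. Of 7 listed genes with pollen or anther in their description, 4 were lower and 3 higher, where 45.1% of all listed genes were lower. The 3 higher genes each overlapped between genotypes. The summed level of the 7 was 373 to 477 FPKM in wild type and 352 to 827 FPKM in the knockdown. That sum mixes both directions, and LOC_Os01g70440 alone made up 611 FPKM of it in knockdown replicate 3. The 1 listed photosynthesis gene, LOC_Os01g64960, which encodes a chlorophyll A-B binding protein, measured 25.2, 23.0 and 11.4 FPKM in wild type against 49.4, 29.5 and 69.7 FPKM in the knockdown. No defining marker was at 0 throughout either genotype among these genes. Their part in the lower cyclin levels was not tested.

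Small RNA was listed as 500-base windows, 11 for 21-nt and 113 for 24-nt siRNA. Of these 124 windows, 0 were assigned by the authors to a cyclin gene of the set and 0 had a description with the word cyclin. The share of all listed genes that had an assigned window is not given here. These counts therefore do not set the cyclins apart from other listed genes. Chromosome 2 held 19 of the windows and chromosome 3 held 12. The window nearest in locus number to the chromosome 2 cyclins lies at chr2:23571500-23571999, on the build of the deposited files, which the sources used here do not name, and covers LOC_Os02g39020 and LOC_Os02g39030, a transposon gene and a transmembrane protein gene 200 numbers or more before LOC_Os02g39230. Its 24-nt signal was 24.9 in wild type and 251 in the knockdown, in the authors' RPTM (reads scaled to library size). With 1 small RNA library per genotype this difference has no replicate check. The window is named only for its locus number, and the share of listed windows that were higher in the knockdown is not given here. A link between it and the cyclin genes was not tested. Windows that were not called changed were not analysed here.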

How the data were processed

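RNA was extracted from young panicles with Trizol, freed of DNA and made into stranded mRNA and small RNA libraries with Illumina kits, per the labels' protocols. The submitters' processing notes name Bowtie 1.1.2, TopHat2 2.1.0 and edgeR, without their roles. The sources used here do not give the build, the annotation or the counting of multiply matching reads. For genes called changed, the authors deposited FPKM per library (2 decimals), a log2 fold change and its p-value, raw and adjusted, and a small RNA signal in RPTM per window, per the file headers. How deeply the mRNA libraries were sequenced is unknown, so no counting interval is given.

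From these, means, SDs, shares of wild type and log2(FPKM + 0.5) differences were computed in Python 3.11.15 with pandas 2.3.3. The deposited log2 fold change of 369 genes whose mean exceeded 1 FPKM in each genotype differed from the log2 ratio of mean FPKM by at most 0.0326; for the cyclins the largest difference was 0.0996. No locus ID matched the gene table at hand (0 of the cyclin genes), so genes carry locus IDs and descriptions, and no sequence is shown.

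The cyclin genes, lists and settings were chosen with earlier results of these data known. Named genes were all cyclins, at most 3 genes per list by absolute log2 fold change, the 5 genes most like the cyclins, and the Dicer gene; the nearest listed genes on chromosome 2 were named after their values were seen. Alternatives were pseudocounts of 0.1 and 1, a ratio without a pseudocount, scaling of libraries to one median, libraries left out in turn, the lowest 25% of genes left out, and stricter limits.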

Additional observations from a re-analysis of the deposited data

How the results depend on the processing

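The log2(FPKM + 0.5) differences of the cyclin genes, whose sign was fixed by their choice and says nothing of stability, lay within the replicate SD of the reported value in 41 of 55 combinations of gene and setting. Leaving out 1 of 3 libraries cannot move a difference by more than that SD, and pairing same-numbered libraries cannot move it at all. Those settings therefore do not measure stability. The 14 combinations that moved by more all changed or dropped the pseudocount. With all libraries the differences were -0.44 for LOC_Os02g39230, -0.73 for LOC_Os02g39240, -0.55 for LOC_Os02g39260, -0.73 for LOC_Os02g39430 and -0.36 for LOC_Os03g11040. At these low levels the pseudocount sets their size: with 0.1 they were, in the same order, -1.10, -1.54, -1.36, -1.49 and -0.92, with 1 they were -0.25, -0.45, -0.32, -0.46 and -0.21, and the log2 ratios of mean FPKM were -1.93, -1.76, -2.38, -2.04 and -1.57. With a library left out they ranged from -0.95 to -0.28. As a share of wild type, 29 of 30 values with a library left out (an alternative chosen after seeing the data) moved by at most 1.5 times; the other is LOC_Os02g39240 without knockdown replicate 2 (10.9% against 29.6%). That the groups do not overlap cannot change when a library is left out. With the lowest 25% of listed genes left out (mean up to 0.263 FPKM), 2 of the 5 remained. An adjusted p of at most 0.01 kept 1 cyclin and a log2 fold change of -2 or lower kept 3, and without the exclusions on descriptions there were 6. In the cell cycle lists, an adjusted p of at most 0.01 left 4 of 6 histone genes and 3 MYB genes. It left 1 gene each of the kinase, kinesin, chromosome structure, checkpoint and meiosis lists, where the kinase and the checkpoint gene are the same, LOC_Os06g47880. A log2 fold change of at least 2 in size left 1 kinase gene, also the checkpoint gene, and 0 histone, kinesin, chromosome structure, meiosis and MYB genes. The filter on low levels left 1 kinase gene and 0 genes of the checkpoint and meiosis lists, and kept every gene of the other lists. As differences between same-numbered libraries (a replicate block, chosen after seeing the data) the means are the same by construction, and their SD over 3 differences was 0.178, 0.335, 0.304, 0.289 and 0.101 in that order of genes, against 0.214, 0.426, 0.292, 0.353 and 0.168 unpaired. The labels tie the numbers to nothing shared, and deviations of same-numbered libraries over the listed genes correlated at -0.04, -0.53 and -0.43, so the libraries were not treated as paired.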

Other observations

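A gene outside the lists stood first among the genes that fell by adjusted p, though not by log2 fold change, the lowest of which was -6.30. LOC_Os04g42120, described as a putative N-acetyltransferase ESCO2, had the smallest adjusted p of the 530 (1.02e-50 in the authors' deposited table, log2 fold change -3.72). In humans ESCO2 acetylates cohesin, the ring that holds sister chromatids together. It measured 4.16, 3.82 and 4.08 FPKM in wild type against 0.40, 0.20 and 0.30 FPKM in the knockdown, or 7.46% of the wild type level. It was singled out after its values were seen and was in none of the lists, since its description holds none of their keywords.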
